A study of Mus musculus with 6 samples.

Results

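The cytochrome P450 families 1 to 4 of the mouse were followed in lung RNA from 3 RAG1-/- mice and 3 RAG1-/- Sgo1-/+ mice. Every gene of the count table whose symbol read Cyp1, Cyp2, Cyp3 or Cyp4 followed by letters and a number was taken, and symbols ending in -ps were left out. This gave 82 of the 25860 genes listed. Of these 82, 6 had a title that named a pseudogene, and they were kept. The rule itself reads symbols only. All mice were 12 months old and untreated, the tissue was described as normal-looking lung, and each sample gave 1 library. RAG1-/- mice lack the recombinase that assembles antigen receptor genes and therefore lack mature T and B cells. Both groups were labelled as carrying this deletion. The second group was in addition heterozygous for Shugoshin-1, a protector of chromosome cohesion, in all cells of the body. The comparison asks what this chromosome instability background changes in lung tissue. Mice of both sexes were used in the study, and the sex behind each library was not given.

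P450 enzymes of these families are haem proteins of the endoplasmic reticulum. They take electrons from P450 oxidoreductase and insert oxygen into foreign chemicals, drugs, steroids and fatty acids. Families 1 to 3 are best known for oxidising xenobiotics, which can detoxify them or turn them into reactive products, while family 4 mainly hydroxylates fatty acids and eicosanoids. The liver holds most of these enzymes, but the club cells of the bronchioles are a rich source in the lung and carry Cyp2f2, which activates naphthalene.

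Upstream sequences of 5 genes are shown because the results turn on their levels: the most abundant member, the nearly identical pair Cyp2a5 and Cyp2a4, whose read numbers lay far apart, and the 2 members with the widest spread between libraries among those above 15 CPM (a count as parts per 1000000 of its library total) on average. Each is the 250 bases before the start site in RefSeq on GRCm38.p6, written 5′ to 3′. The genes' own counts were made on another build. In the pair, capitals mark the bases that differ when the sequences are laid side by side with an offset of 1 base. In the other 3, capitals mark GCGTG, the core of the aryl hydrocarbon receptor element, and TATAAA, the TATA box.
Cyp2f2 (chr7:27119705-27119954, + strand): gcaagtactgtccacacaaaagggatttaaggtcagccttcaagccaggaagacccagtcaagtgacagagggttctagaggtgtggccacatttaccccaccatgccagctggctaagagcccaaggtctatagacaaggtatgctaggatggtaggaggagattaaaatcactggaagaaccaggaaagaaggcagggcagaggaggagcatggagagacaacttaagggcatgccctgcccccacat
Cyp2a5 (chr7:26835089-26835338, + strand): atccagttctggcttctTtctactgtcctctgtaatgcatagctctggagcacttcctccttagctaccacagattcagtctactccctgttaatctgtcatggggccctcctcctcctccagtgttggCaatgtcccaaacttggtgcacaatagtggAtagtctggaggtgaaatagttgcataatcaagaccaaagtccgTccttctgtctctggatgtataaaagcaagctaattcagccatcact
Cyp2a4 (chr7:26306942-26307191, + strand): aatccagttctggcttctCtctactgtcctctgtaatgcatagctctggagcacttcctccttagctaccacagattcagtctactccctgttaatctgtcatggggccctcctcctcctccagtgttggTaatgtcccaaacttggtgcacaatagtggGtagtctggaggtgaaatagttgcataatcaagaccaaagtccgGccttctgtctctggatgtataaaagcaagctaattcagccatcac
Cyp1a1 (chr9:57697363-57697612, + strand): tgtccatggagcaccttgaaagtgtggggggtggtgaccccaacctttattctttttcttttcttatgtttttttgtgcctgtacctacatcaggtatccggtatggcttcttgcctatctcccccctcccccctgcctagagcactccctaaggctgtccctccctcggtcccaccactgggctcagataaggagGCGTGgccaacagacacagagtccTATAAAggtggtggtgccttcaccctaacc
Cyp2e1 (chr7:140763569-140763818, + strand): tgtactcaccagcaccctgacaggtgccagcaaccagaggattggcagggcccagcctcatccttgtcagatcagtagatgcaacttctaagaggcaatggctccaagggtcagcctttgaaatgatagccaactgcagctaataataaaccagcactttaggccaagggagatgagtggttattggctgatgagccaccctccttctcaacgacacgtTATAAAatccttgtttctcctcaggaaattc

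The Cyp2a5 and Cyp2a4 sequences differed at 4 of 249 aligned bases, which is an identity of 98.4%. Cyp1a1 held 1 GCGTG on the plus strand, beginning 54 bases before the start site, and a TATAAA beginning 30 bases before it. Cyp2e1 held a TATAAA beginning 31 bases before the start. The Cyp2f2 stretch held neither string, nor TGTTTNC, the letters of a forkhead motif. RefSeq entries were found for 66 of the 82 members. On both strands GCGTG was present in 8 of the 25 upstream sequences of genes with at least 10 reads and in 5 of the 41 of the others, against 28.2% of all 27025 sequences of the same length. TATAAA was present in 5 of the 25 and in 21 of the 41, against 12.97% of all sequences, and TGTTTNC in 3 of the 25 and 10 of the 41, against 17.9%. These are matches of letters, and binding was not measured.

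The libraries held 3205822 to 9366774 counts, so that 3 counts corresponded to 0.320 to 0.936 CPM. Counts were odd for only 31.0% to 36.5% of the genes above 0, where whole fragments counted once would give odd and even numbers alike, and how mates of a pair were counted is not given in the sources used here. Sgo1, the gene altered in the second group, was nearly unread, with 6, 2 and 4 counts over the RAG1-/- libraries and 6, 0 and 2 over the others, too few to check the genotype. Rag1 had 8 to 24 reads in every library, and since the deleted part of the gene is not given, these reads check nothing. Lung markers were high, with the club cell protein gene Scgb1a1 at 47501 to 72841 CPM. RAG1-/- replicate 1 had 7717 reads of Xist, 2 of the Y-linked Ddx3y and 0 of Kdm5d, the pattern of a female. The other 5 libraries had 4 to 8 reads of Xist, 342 to 1228 of Ddx3y and 64 to 161 of Kdm5d, the pattern of males, so that every RAG1-/- Sgo1-/+ library was of the male pattern. The immunoglobulin light chain gene Igkc had 1853 reads in the library labelled RAG1-/- replicate 2, 8 in replicate 1 and 0 in the other 4. In the same library the B and plasma cell marker Jchain had 942 reads, beside 0 to 4 in the others. The T cell marker Trac had 22 reads there and 0 to 2 in the others, although mice of this genotype lack mature T and B cells. Whether a label or a sample was exchanged cannot be told from these values. RAG1-/- Sgo1-/+ replicate 6 was the shallowest library and held 8697 CPM of alveolar macrophage markers, where the other libraries held 1428 to 2368. Chil3 alone gave 6083 of the 8697 CPM. The mean log2 level over the 16 genes of that list was also highest in replicate 6, at 6.51, beside 5.05 to 5.84 in the others. Single markers differed. Itgax was at 203 CPM in replicate 6 and at 25.5 to 48.5 CPM in the others. Siglecf was at 6.24 CPM in replicate 6, 4.44 and 5.93 CPM in the other RAG1-/- Sgo1-/+ libraries and 9.08 to 11.3 CPM in RAG1-/-. Between genotypes, 8 of the 16 genes had a log2 fold change above 0 and 8 below. In bulk tissue fewer cells of a type and less RNA per cell cannot be told apart.

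Most of the 82 genes had few or no reads in these lungs. There were 40 at 0 in all 6 libraries, 10 with 1 to 9 reads in all, and 32 with at least 10 reads, of which 22 had at least 100. The 40 at 0 were bounded only by 3 counts per library, the CPM values given above. The Cyp2c genes, drug and arachidonic acid oxidases of liver, kidney and gut, showed this most fully: 14 of 15 had no read, and Cyp2c23 alone had 41 reads. In the Cyp3a subfamily, whose enzymes oxidise steroids and many drugs in liver and gut, 6 of 9 genes had no read and Cyp3a13 held 360 of the 370 reads. Cyp2d, counterparts of the human drug oxidase CYP2D6, had 6 of 9 genes at 0, and Cyp2d22 held 1976 of 1983 reads. Of 8 Cyp4a genes 5 had no read, and of 8 Cyp2j genes 5. None of the 9 Cyp4f genes was at 0. Cyp1a2, Cyp2w1 and Cyp4x1 had no read either. Hepatocyte markers, a check for liver RNA, summed to 6.51 to 16.5 CPM over 23 genes, 10 of which were at 0 in all libraries, and albumin had 0 to 6 reads per library.

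Reads were concentrated in a few members. Together the 82 genes took 0.495% to 0.754% of all reads in a library. Cyp2f2 alone held 61.1% to 69.4% of them, and with Cyp2a5, Cyp4b1, Cyp2b10 and Cyp2s1 the share was 93.0% to 95.4%. Cyp2f2 ranked 7 among all genes by mean CPM. Set per kilobase of transcript, the mean level was 2171 CPM per kb for Cyp2f2, 318 for Cyp2a5, 281 for Cyp4b1, 201 for Cyp2b10 and 89.1 for Cyp2s1, and the next, Cyp4v3, was at 21.5. The plot of levels by library shows this step after the fifth gene.

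**Figure D1:**
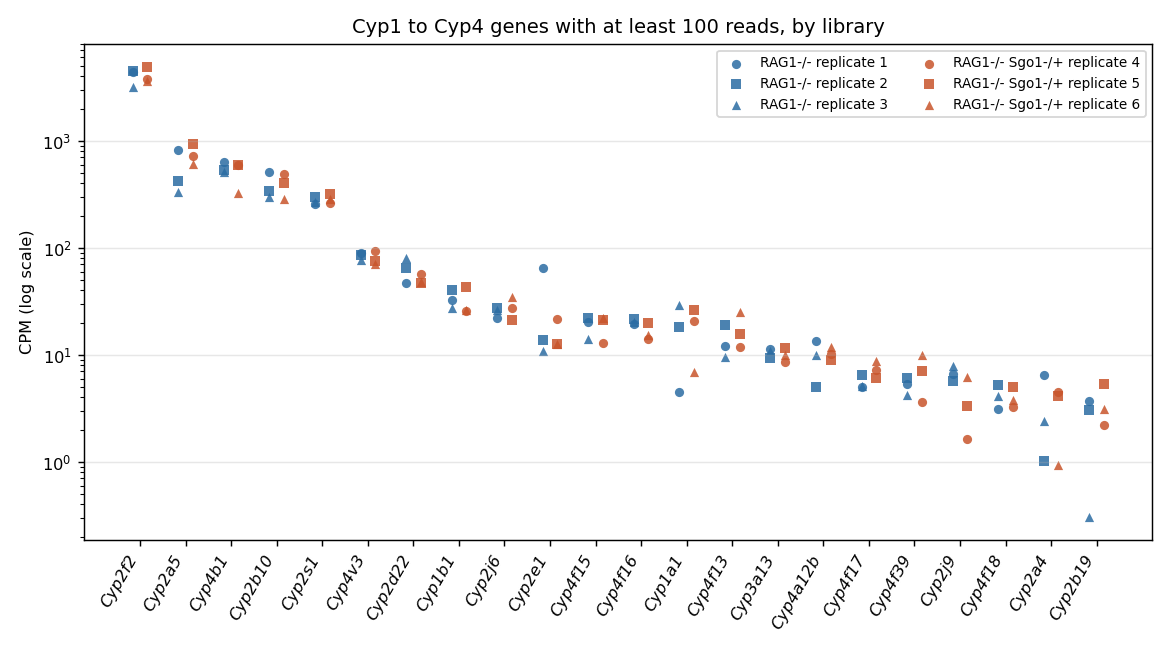
CPM on a log axis for the 22 genes with at least 100 reads, ordered by mean CPM, with 1 point per library, blue for RAG1-/- (n = 3) and orange for RAG1-/- Sgo1-/+ (n = 3). Cyp2f2 lies between 3185 and 4941 CPM, and in every gene shown the points of the groups overlap.

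Neighbouring members differed widely in level. Places were counted over members only, passing over any other genes between them, and the gap allowed within a run was 1500000 bases. On chromosome 7, 13 members followed one another from Cyp2s1 to Cyp2t4, and this run held Cyp2f2, Cyp2a5, Cyp2b10 and Cyp2s1, 4 of the 5 most abundant members, beside genes with almost no read. Cyp2a12, 1 place before Cyp2f2, had 9 reads over 6 libraries against 140843, and Cyp2b13, 1 place after Cyp2b10, had 0 against 13866. The run of 8 Cyp4f genes on chromosome 17 was more even, from 2 reads for Cyp4f14 to 647 for Cyp4f16. The run of 14 Cyp2c genes on chromosome 19 had no read at all.

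**Figure D2:**
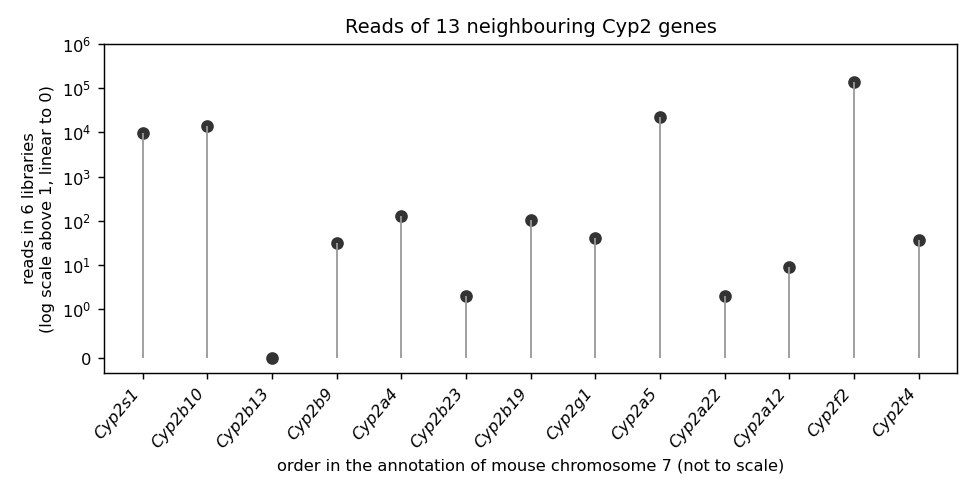
Reads summed over 6 libraries for 13 neighbouring Cyp2 genes of chromosome 7 in annotation order, on an axis that is logarithmic above 1 and linear down to 0. Cyp2f2 (140843 reads) and Cyp2a5 (22612) stand 1 or 2 places from genes with 2 to 42 reads, with only members counted as places.

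Some of these genes share sequence, so that the split of their reads is uncertain. In the annotated transcripts, 14.4% of the 100-base windows of Cyp2a5 occurred in another gene, mostly Cyp2a4, and 11.2% of those of Cyp2a4. The shares were 36.2% for Cyp4a12b and 35.8% for Cyp4a12a, which share with each other, 20.1% for Cyp4a32 and 9.80% for Cyp4f16. Some genes at or near 0 shared more: 90.8% for Cyp3a41a and 88.2% for Cyp3a41b, 44.1% for Cyp2c40 and 36.3% for Cyp2c69, so that a read from one of these could be split or left uncounted, and how such reads were treated is not given in the sources used here. Among the 32 genes with at least 10 reads, 8 exceeded 5% and 16 shared no window. Cyp2a5, which hydroxylates coumarin and nicotine, had 175 times the reads of Cyp2a4, a steroid hydroxylase with the near-identical upstream sequence printed above. The ratio ranged from 127 to 644 over the libraries, and the 644 rested on 3 reads of Cyp2a4 in replicate 6. Cyp4a12b had 11.03 times the reads of Cyp4a12a, and both encode hydroxylases of arachidonic acid.

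Between genotypes, none of the 32 genes with at least 10 reads passed the test (edgeR quasi-likelihood test with Benjamini-Hochberg adjustment over all 17231 genes tested, adjusted p under 0.05 and at least 2-fold). The share of all genes called was 0%. Adjusted p-values of the members ran from 0.832 to 0.997. At an unadjusted p under 0.05 there was no member, beside 5.66% of all genes (976). DESeq2 also called no member, with none at an unadjusted p under 0.05, beside 4.03% of all genes. With limma-voom none was called and 1 (Cyp2j9) had an unadjusted p under 0.05, beside 4.86% of all genes. In no member did the 3 values of one group all lie above those of the other, where 11.8% of all genes showed this. The log2 fold changes (RAG1-/- Sgo1-/+ over RAG1-/-) were above 0 in 16 genes and below 0 in 16, and their median was 0.012 beside 0.034 over all genes. With TMM scaling the member median was -0.015 and the median of all genes 0.008, so the sign of the member median changed with the scaling.

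The precision of these differences varied widely between genes. In 13 of the 32 genes, all among the 22 with at least 100 reads, the 95% interval lay within 2-fold either way, and in the other 19 it reached 2-fold. These 19 were the 10 genes with 10 to 99 reads and 9 with at least 100, among them Cyp2a5 with 22612 reads, whose CV over the libraries (the SD over the mean) was 36.5%. Cyp3a13, with 360 reads and a CV of 11.7%, had an SE of 0.24, below the 0.30 of Cyp2a5. The median absolute log2 fold change was 0.12 for the members with at least 100 reads, 0.16 for all 13800 genes of that depth and 0.44 for the members with 10 to 99 reads. The summed level of all members was 6112 ± 1046 CPM in RAG1-/- (SD, n = 3) and 6371 ± 1070 CPM in RAG1-/- Sgo1-/+ (SD, n = 3), with a two-sided exact permutation p of 0.8. With 3 against 3, 0.1 is the smallest p this test can give.

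**Figure D3:**
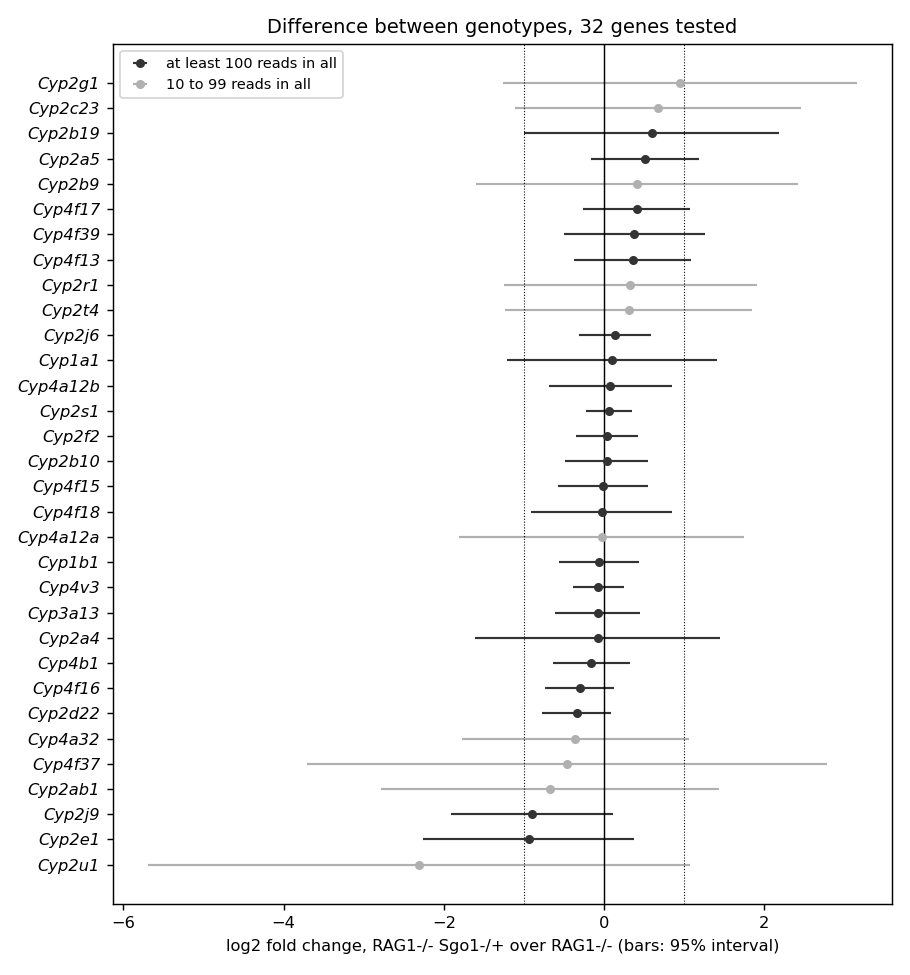
log2 fold change of RAG1-/- Sgo1-/+ over RAG1-/- with its 95% interval from edgeR for the 32 genes tested, dark for at least 100 reads and grey for 10 to 99; dotted lines mark 2-fold. Every interval crosses 0, and the intervals of Cyp2s1 and Cyp2f2 are among the narrowest.

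Among the genes that oxidise foreign chemicals, Cyp2f2 stood at 4374, 4445 and 3185 CPM in RAG1-/- replicates 1 to 3 and at 3755, 4941 and 3609 CPM in RAG1-/- Sgo1-/+ replicates 4 to 6. The groups overlapped throughout, and the lowest and highest values differed by 1.55 times. The log2 fold change was 0.04 ± 0.18 (SE), with a 95% interval from -0.36 to 0.43. Scgb1a1 moved over the same libraries from 47501 to 72841 CPM, and the 20 club cell markers, which do not include any P450 gene, summed to 75344, 85041 and 58295 CPM in RAG1-/- and to 61775, 87457 and 73822 CPM in RAG1-/- Sgo1-/+. Scgb1a1 made up 82.2% of this sum, so it mainly compares 1 gene with Cyp2f2, and for both the highest library was replicate 5 and the lowest replicate 3. The mean log2 level over the 20 markers gave another order, with replicate 6 highest (8.57) and replicate 4 lowest (7.78). That mean includes Retnla, which was at 2580 CPM in replicate 6 and at 83.6 to 133 CPM in the others. The part of club cell content in the Cyp2f2 values was not tested.

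Cyp2a5 was at 827, 423 and 335 CPM in RAG1-/- and at 715, 942 and 603 CPM in RAG1-/- Sgo1-/+. All 3 RAG1-/- Sgo1-/+ values lay above RAG1-/- replicates 2 and 3, and replicate 1, the library of female pattern, lay above 2 of them. The log2 fold change was 0.51 ± 0.30 (SE), with an edgeR p of 0.122 and an adjusted p of 0.840. Single libraries moved this value both ways. It was 0.27 without replicate 3 and 0.32 without replicate 5. Without replicate 1 the log2 fold change was 0.99 ± 0.21 (SE), with an unadjusted p of 0.000965 and an adjusted p of 0.702. In that fit 3 members, Cyp2a5, Cyp2d22 and Cyp2g1, had an unadjusted p under 0.05, beside 7.09% of all genes. Markers of ciliated cells, which line the same airways, had the same 2 highest libraries (replicates 5 and 1) and the same 2 lowest (2 and 3), by their sum and by their mean log2 level. The mean log2 level hardly separated replicate 2 (5.663) from replicate 4 (5.665), or replicate 1 (6.026) from replicate 6 (6.016). The ciliated markers summed to 2599, 1879 and 1800 CPM in RAG1-/- and to 2286, 2816 and 2347 CPM in RAG1-/- Sgo1-/+. Of the 20 genes 2 were higher at an unadjusted edgeR p under 0.05, beside 5.66% of all genes in either direction, and none after adjustment. Of these, the ciliary master regulator Foxj1 had 165 to 286 CPM in RAG1-/- and 241 to 383 CPM in RAG1-/- Sgo1-/+. Ciliated cells were 1 of several cell types with a marker list, and the club cell markers ordered the libraries otherwise. By sum, replicate 2 (85041 CPM) lay above replicate 1 (75344 CPM). By mean log2 level, replicate 6 was highest (8.57) and replicate 4 lowest (7.78). The part of ciliated cells, of club cells and of sex in the Cyp2a5 values was not tested.

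**Figure D4:**
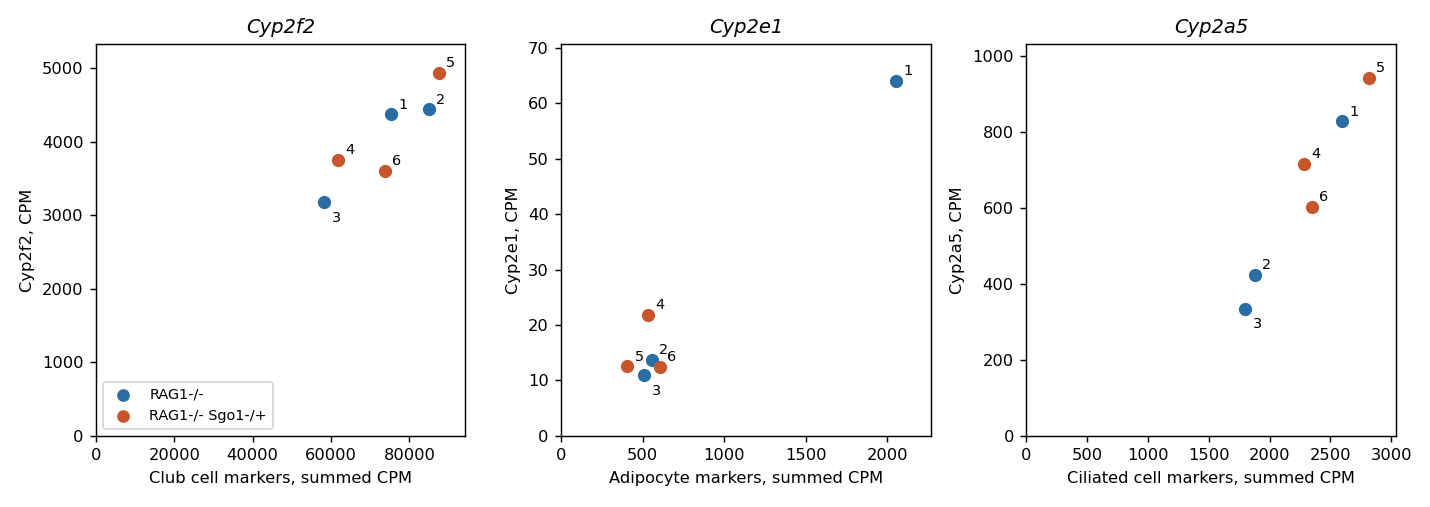
Level of 3 P450 genes (CPM) against the summed CPM of a marker list, with 1 point per library labelled by replicate, blue for RAG1-/- and orange for RAG1-/- Sgo1-/+; Scgb1a1 makes up 82.2% of the club cell sum. Replicate 1 stands alone for Cyp2e1 (64.1 CPM) and adipocyte markers (2056 CPM), while replicates 2 and 3 are lowest for both Cyp2a5 and ciliated cell markers.

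Cyp2b10, the standard target of the constitutive androstane receptor, was at 507, 338 and 298 CPM in RAG1-/- and at 486, 399 and 284 CPM in RAG1-/- Sgo1-/+. Each group held high and low libraries, and the log2 fold change was 0.03 ± 0.23 (SE). Cyp2s1, an epithelial P450 of airway and gut, was the steadiest member. Its level ran from 256 to 318 CPM with a CV of 8.62% over the 6 libraries, and the log2 fold change was 0.06 ± 0.13 (SE), with an interval from -0.23 to 0.35. Cyp2d22 was at 47.0, 64.5 and 80.4 CPM in RAG1-/- and at 57.2, 46.5 and 47.4 CPM in RAG1-/- Sgo1-/+. Replicate 1 again sat among the other group, and the log2 fold change of -0.34 ± 0.19 (SE) became -0.52 ± 0.17 (SE) without it, with an adjusted p of 0.702, and -0.14 without replicate 3. Cyp3a13 lay between 8.48 and 11.5 CPM, with a log2 fold change of -0.08 ± 0.24 (SE).

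Cyp2e1, which oxidises ethanol and other small solvents, had the widest spread between libraries of the 22 genes with at least 100 reads. It was at 64.1, 13.7 and 10.9 CPM in RAG1-/- and at 21.8, 12.6 and 12.5 CPM in RAG1-/- Sgo1-/+. Replicate 1 was 2.94 times the next library, and the other 5 overlapped. The CV was 91.5%, above that of 99.3% of all genes of that depth. The log2 fold change of -0.94 ± 0.59 (SE) turned to 0.36 ± 0.31 (SE) without replicate 1, with unadjusted edgeR p-values of 0.143 and 0.282. Without replicate 3 it was -1.33, with an unadjusted edgeR p of 0.0344 and an adjusted p of 0.997. Adipocyte markers moved in the same library: they summed to 2056 CPM in replicate 1 and to 406 to 605 CPM in the other 5. Of the 15 genes of that list 7 were lower in RAG1-/- Sgo1-/+ at an unadjusted p under 0.05, beside 5.66% of all genes in either direction. None passed after adjustment, and the median log2 fold change of the list was -1.37. Its defining markers were present at a low level throughout, with adiponectin (Adipoq) at 86.0 CPM in replicate 1 and 4.99 to 12.5 CPM elsewhere, while Ucp1 of brown fat had 114 reads in replicate 1 and 0 in the others. Replicate 1 was also the library of female pattern. The part of fat and of sex in the Cyp2e1 value was not tested.

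The Cyp1 enzymes oxidise polycyclic aromatic hydrocarbons and oestrogens and are induced through the aryl hydrocarbon receptor. Cyp1a1 was at 4.48, 18.2 and 28.9 CPM in RAG1-/- and at 20.6, 25.9 and 6.86 CPM in RAG1-/- Sgo1-/+. Each group held 1 low library and 2 higher ones, with 6.45 times between the extremes and a CV of 56.8%. Its log2 fold change was 0.10 ± 0.59 (SE), with an interval from -1.21 to 1.41, and it ran from -0.37 without replicate 1 to 0.73 without replicate 3. Cyp1b1, more a gene of stromal and vascular cells, ran from 25.9 to 42.8 CPM, with a log2 fold change of -0.06 ± 0.23 (SE). Other targets of the receptor did not pass the test: of 11 tested, 0 had an unadjusted p under 0.05. Their summed level, of which Nfe2l2 made up 44.3%, ran from 699 to 792 CPM. Nqo1, a quinone reductase, ran from 12.9 to 28.7 CPM and Polk, a DNA polymerase, from 23.1 to 41.7 CPM. Both were lowest in replicate 1, as was Cyp1a1. In replicate 6, the other low library of Cyp1a1 (6.86 CPM), they were not low, with Nqo1 at 20.6 CPM and Polk at 34.6 CPM. Tiparp, a feedback inhibitor of the receptor, ran from 65.1 to 84.8 CPM and was lowest in replicate 2. The receptor gene Ahr itself had 104 ± 17.2 CPM in RAG1-/- (SD, n = 3) and 84.3 ± 8.39 CPM in RAG1-/- Sgo1-/+ (SD, n = 3), with an unadjusted edgeR p of 0.0816.

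**Figure D5:**
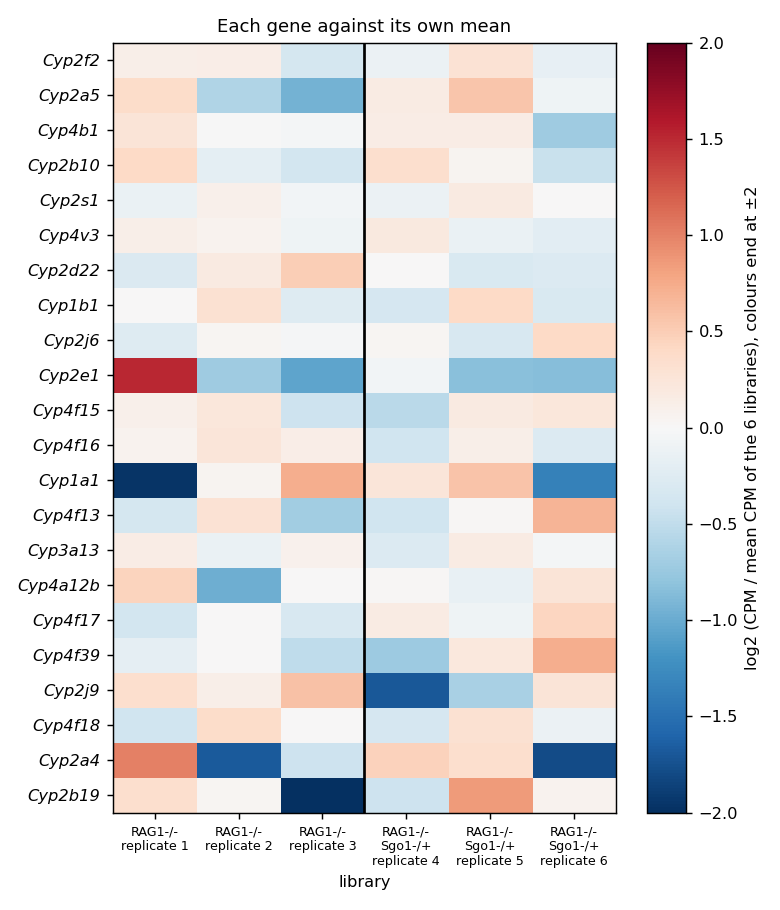
log2 of CPM over the gene's mean of the 6 libraries for the 22 genes with at least 100 reads, with 1 column per library and a line between the groups; colours end at 2 either way. Columns of one genotype do not share a pattern: Cyp2e1 is high in replicate 1 only, and Cyp1a1 is low in replicates 1 and 6.

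Family 4 and the Cyp2j genes act on fatty acids and eicosanoids. Cyp4b1, an abundant lung enzyme that also activates the toxin ipomeanol, was at 638, 529 and 515 CPM in RAG1-/- and at 591, 591 and 324 CPM in RAG1-/- Sgo1-/+. Replicate 6 alone lay below the rest, and the log2 fold change of -0.16 ± 0.22 (SE) was 0.077 without it. Cyp4v3, the counterpart of a human fatty acid hydroxylase mutated in a retinal dystrophy, was the second steadiest member, at 70.5 to 94.1 CPM with a CV of 11.03%. Its log2 fold change was -0.07 ± 0.14 (SE).

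Within Cyp4f, hydroxylases of leukotrienes and long fatty acids, levels were low in both groups. Cyp4f16 was at 19.2, 21.8 and 20.1 CPM in RAG1-/- and at 13.9, 20.01 and 15.3 CPM in RAG1-/- Sgo1-/+. Replicate 5 fell inside the narrow range of the first group and the other 2 below it. The log2 fold change was -0.30 ± 0.20 (SE), or -0.19 without replicate 4. Without replicate 5 it was -0.48, with an unadjusted edgeR p of 0.0464 and an adjusted p of 0.867. Cyp4f13, Cyp4f17 and Cyp4f39 had their highest value in replicate 6, at 24.95, 8.73 and 9.98 CPM, with log2 fold changes of 0.36, 0.41 and 0.38. Without replicate 6 these were 0.035, 0.28 and 0.044. Cyp4f15 and Cyp4f18 had log2 fold changes of -0.01 and -0.03. All of these intervals included 0.

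Cyp4a12b lay between 5.05 and 13.5 CPM, with its extremes in replicates 2 and 1 of RAG1-/-. Of the epoxygenase genes, Cyp2j6 was at 21.1 to 34.9 CPM with a log2 fold change of 0.14 ± 0.20 (SE). Cyp2j9 had the smallest p-value of all members. It was at 6.62, 5.66 and 7.87 CPM in RAG1-/- and at 1.62, 3.33 and 6.24 CPM in RAG1-/- Sgo1-/+. Replicate 6 alone reached the range of the first group. The log2 fold change was -0.90 ± 0.45 (SE), with an interval from -1.92 to 0.11, an edgeR p of 0.0743 and an adjusted p of 0.832. Without replicate 4 it was -0.53. Without replicate 6 it was -1.43, with an unadjusted p of 0.00964 and an adjusted p of 0.900, and in limma-voom it was -1.14 with an adjusted p of 0.873. The gene rested on 188 reads in all.

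Members with few reads gave wide differences. Cyp2b19, known from keratinocytes, was at 3.74, 3.03 and 0.303 CPM in RAG1-/- and at 2.22, 5.37 and 3.12 CPM in RAG1-/- Sgo1-/+, and Cyp2a4 ran from 0.936 to 6.51 CPM with its highest value in replicate 1. Neither gene separated the groups, and the log2 fold change of Cyp2b19, 0.59, ran from 0.080 without replicate 3 to 1.17 without replicate 1. The highest log2 fold changes above 30 reads belonged to Cyp2g1, an olfactory P450, at 0.95 ± 0.99 (SE), and to Cyp2c23, an epoxygenase, at 0.67 ± 0.80 (SE). Cyp2ab1 was at -0.67 ± 0.94 (SE). With 1 library left out these values ran from 0.40 to 3.02, from 0.27 to 1.87 and from -1.46 to -0.036. Cyp2u1 was singled out after its value was seen, as the only member with an absolute log2 fold change of at least 1. It had 18 reads in all and was at -2.31 ± 1.52 (SE), with a range from -5.48 to -1.65 when 1 library was left out. The -5.48 came without replicate 6, with an unadjusted edgeR p of 0.0483 and an adjusted p of 0.900.

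Across the 22 genes with at least 100 reads the median CV over the 6 libraries was 23.2%, beside 16.7% for all genes of that depth. Single genes went opposite ways in one library: replicate 1 was highest for Cyp2e1 and lowest for Cyp1a1, and replicate 6 was highest for Cyp4f13 and lowest for Cyp4b1.

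The other genes of the pathway gave no called gene in any list. Of the redox partners and haem enzymes that serve every P450, 19 were tested and 0 had an unadjusted p under 0.05. P450 oxidoreductase (Por) was at 310 ± 79.5 CPM in RAG1-/- (SD, n = 3) and 313 ± 41.9 CPM in RAG1-/- Sgo1-/+ (SD, n = 3), and the lowest p-values belonged to the haem synthesis gene Cpox, at a log2 fold change of 0.39 ± 0.18 (SE), and to Blvra, which reduces biliverdin, at -0.37 ± 0.22 (SE). Among P450 regulators 1 of 31 was higher at an unadjusted p under 0.05, beside 5.66% of all genes in either direction. This was Nr1h2, a liver X receptor, at 51.0 to 53.0 CPM in RAG1-/- and 62.0 to 67.7 CPM in RAG1-/- Sgo1-/+. Its edgeR p was 0.0182 and its adjusted p 0.832. Its values did not overlap between groups, as in 6.24% of all genes in this direction. Rxra, the common partner of such receptors, was at 0.30 ± 0.14 (SE) on the log2 scale. The values of Rxra and Cpox did not overlap between groups either, beside the same 6.24% of all genes.

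Of the P450 families beyond family 4, 11 of 21 listed genes could be tested and 0 had an unadjusted p under 0.05. The oxysterol hydroxylase Cyp7b1 had the lowest p, 0.0662 by edgeR, at 5.86 to 7.26 CPM in RAG1-/- and 3.74 to 4.45 CPM in RAG1-/- Sgo1-/+, followed by Cyp39a1 at a log2 fold change of -0.32 ± 0.22 (SE). The values of Cyp7b1 did not overlap between groups, as in 5.54% of all genes in this direction. Among other oxidising and hydrolysing enzymes 1 of 47 was lower at an unadjusted p under 0.05, beside 5.66% of all genes in either direction. This was the quinone reductase Nqo2, at a log2 fold change of -0.37 ± 0.15 (SE). Maoa, an amine oxidase, was at -0.28 ± 0.13 (SE). Of the conjugating enzymes outside the glutathione transferases 26 were tested and 0 had an unadjusted p under 0.05. Nnmt was at -0.62 ± 0.29 (SE) and Nat2 at -0.39 ± 0.21 (SE). The values of Nqo2, Maoa and Nat2 did not overlap between groups either, beside the same 5.54% of all genes. Of the other aryl hydrocarbon receptor targets, Polk and Scin, an actin-severing protein, had the lowest p-values, 0.160 and 0.304 by edgeR.

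Of the arachidonic acid genes outside the P450 families 20 were tested and 0 had an unadjusted p under 0.05. The lowest p-values belonged to Ephx2, which hydrolyses the epoxides that P450 epoxygenases make, and to the lipoxygenase gene Alox15. Ephx2 was at 10.7, 2.83 and 4.84 CPM in RAG1-/- and at 3.23, 2.59 and 4.37 CPM in RAG1-/- Sgo1-/+. Its high library was replicate 1, the library that was also highest for Cyp2e1 and adipocyte markers, and its log2 fold change was -0.90 ± 0.50 (SE). Alox15 was at 0.50 ± 0.37 (SE), with 18.4 CPM in replicate 6 and 5.25 to 11.7 CPM in the others.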

How the data were processed

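Total RNA of normal-looking lung was made into Illumina TruSeq V2 libraries and sequenced on a MiSeq. The authors aligned the reads and counted them per Entrez gene in GeneSifter; the deposited table holds these counts, not normalised, with each library in 2 identical columns, of which the first was used. The submitters' processing notes name BWA and edgeR without a version. A second deposited table holds the authors' own comparison (ratios, p-values, group means, ontology terms) and was not used. Symbols were found for 24061 of 25860 IDs (93.0%). CPM are counts over the library total (3205822 to 9366774). Genes with at least 10 counts over 6 libraries were tested with edgeR 4.0.16 (quasi-likelihood F test, total count as library size, prior count 0.125, Benjamini-Hochberg over all genes), in R 4.3.3; SE is the absolute log2 fold change over the root of F. The fit was tested on simulated data. Alternatives used TMM, DESeq2 1.42.0, limma 3.58.1, other filters, halved counts and left-out libraries. Shared windows came from GENCODE transcripts, as did lengths. Nothing says that libraries came from separate litters or cages, while the tests treat the mice as independent. Genes with at least 100 counts, those with an unadjusted p under 0.05, the 3 highest and 3 lowest log2 fold changes above 30 counts and, per pathway list, the 2 lowest p-values were named. The members and lists were chosen with earlier results of these data known.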

Additional observations from a re-analysis of the deposited data

How the results depend on the processing

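No member was called under any alternative. All genes called numbered 1 with DESeq2 and 0 to 1 when 1 library was left out (1 without replicate 5). All genes at an unadjusted p under 0.05 ranged from 571 to 1420 with 1 library left out and were 611 without both replicates 2 and 6, which stood apart, as replicate 1 did (Xist, adipocyte markers). Members at an unadjusted p under 0.05 numbered 1 of 32 with limma-voom (Cyp2j9), beside 4.86% of all genes. Without both there was 1 of 30 (Cyp2j9), beside 3.65% of all genes. With 1 library left out there were 0 to 3 (3 without replicate 1), beside 3.36% to 8.33% of all genes. Members whose groups did not overlap ranged from 2 to 4 with 1 library left out, when 18.5% to 26.1% of all genes did so, and were 3 without both, when 33.0% did. The median log2 fold change of the members changed sign between settings, from -0.067 to 0.13. Of 372 values for 25 single members 340 kept their direction, none passed the threshold, and 11 members had no reversal.

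With 1 library left out, log2 fold changes ran from -0.37 to 0.73 for Cyp1a1, -0.35 to 0.081 for Cyp1b1, -0.46 to 0.88 for Cyp2a4, -0.16 to 0.30 for Cyp2b10, -1.33 to 0.36 for Cyp2e1, -0.12 to 0.12 for Cyp2f2, -0.050 to 0.31 for Cyp2j6, -0.018 to 0.13 for Cyp2s1, -0.20 to 0.033 for Cyp3a13, -0.20 to 0.42 for Cyp4a12b, -0.29 to 0.077 for Cyp4b1, -0.18 to 0.20 for Cyp4f15, -0.24 to 0.17 for Cyp4f18 and -0.21 to 0.0084 for Cyp4v3. Without both replicates 2 and 6, reversed values were 0.19 for Cyp1b1, -0.31 for Cyp4a12b, 0.037 for Cyp4b1, 0.21 for Cyp4f18 and 0.024 for Cyp4v3, while Cyp2s1 was at 0.14, and limma-voom gave 0.062 for Cyp4f18. The cause of these shifts was not tested. The 11 members without a reversal ran from 0.27 to 0.99 (Cyp2a5), -1.46 to -0.036 (Cyp2ab1), 0.080 to 1.17 (Cyp2b19), 0.27 to 1.87 (Cyp2c23), -0.52 to -0.14 (Cyp2d22), 0.40 to 3.02 (Cyp2g1), -1.43 to -0.53 (Cyp2j9), 0.035 to 0.66 (Cyp4f13), -0.48 to -0.19 (Cyp4f16), 0.28 to 0.53 (Cyp4f17) and 0.044 to 0.69 (Cyp4f39) with 1 library left out. No paired analysis was possible because the groups share no replicate numbers. None of the 10 members with 10 to 99 reads had an interval within 2-fold.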
